A study of Gallus gallus with 4 samples.

Results

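Zinc finger protein genes were examined in maps of c-Myc binding in chicken skeletal muscle cells. They were taken as every gene named in either of 2 peak lists whose description holds the words zinc finger. Homeobox genes and ring finger, TRIM, GATA, KLF, nuclear receptor, KAT, KDM, RBM and DHX genes were left out by name, as was ZBTB17. This gave 61 genes of the 4832 named in all, with 265 of 19354 peaks in myoblasts and 15 of 1061 in myotubes. Among the genes named, the choice used names and descriptions and no score or tag count. A gene is named only if a peak was assigned to it, so genes without a peak are not in the set. Of the 66 genes with the words in their description, GATAD1, GATAD2A, ZBTB17, ZEB1 and ZFHX3 were the 5 left out.

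The study mapped c-Myc by chromatin immunoprecipitation followed by sequencing in primary cells from embryonic skeletal muscle at passage 1. Proliferating myoblasts were grown in RPMI medium with 15% fetal bovine serum, and differentiated myotubes came from such cells moved to 2% horse serum. Each state had 1 library with an abcam antibody against c-Myc and 1 with IgG from bioss, 4 libraries in all, from cells with no genetic change named. Depth was 11.5 M c-Myc and 16.1 M IgG tags for myoblasts, against 8.65 M and 19.3 M for myotubes. Replicates were lacking, so no difference between states or genes could be tested. All intervals are 95% intervals that cover counting error only. Intervals of shares are exact. Those of tags and tag ratios put counts in steps of 0.5 into the exact formulas and are approximate. Peak lists hold no expression, so the labelled cell states were not tested against marker genes, and more cells with c-Myc at a site cannot be told apart from more c-Myc per cell.

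A zinc finger is a small protein fold held together by a zinc ion between cysteine and histidine residues. In many transcription factors rows of such fingers read DNA sequence. Other kinds bind RNA, membrane lipids or ubiquitin, or are part of enzymes that attach palmitate to proteins. The set therefore joins genes by the words zinc finger in their description, and not by a common fold or pathway. c-Myc binds DNA with its partner MAX, mostly near promoters, and is known for driving growth and for delaying muscle differentiation.

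In myoblasts 18 of the 61 genes (29.5%, 18.5 to 42.6%) had a c-Myc peak within 1 kb of a transcription start site (TSS), called a promoter peak here, against 22.0% of all 4832 genes named. The general share lies inside the interval of the zinc finger genes. The 18 genes were ZFYVE21, ZNF767, ZBTB48, ZDHHC8, ZNF622, ZFAND6, ZC3H15, ZNF800, ZCCHC8, VEZF1, ZFYVE19, ZDHHC18, ZRANB2, ZDHHC17, ZNF384, JAZF1, ZNF512B and ZFP92, with 1 promoter peak each. In myotubes ZC3HC1 alone had one, 1.64% (0.0415 to 8.80%) against 1.37% of all genes, and its peak was 1 of the 15 zinc finger peaks (6.67%, against 6.31% of all myotube peaks). None of the 61 had a promoter peak in both lists, and 0.373% of all genes did. Because the lists were called separately, absence from a list does not show absence of binding.

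The promoter peak with the highest score was at ZFYVE21, a FYVE-domain protein that regulates focal adhesions in mammalian cells. It lay on chromosome 5 of build galGal4 from 50384522 to 50384722, centred at -137 bp from the TSS (negative values are upstream), and ranked 6 of 1106 promoter peaks in myoblasts by score. The score is the authors' own and equals the c-Myc tags that the peak caller counted, per 10 M tags of the library. Tag numbers given beside it come from the authors' second count over the same peak in both libraries, which can differ slightly from the caller's. The ZFYVE21 peak had a score of 24.8 and held 29.5 c-Myc tags (19.8 to 42.2) against 1.5 IgG tags. Per 10 M tags that was 25.7 against 0.933, a ratio of 27.6 (5.93 to 399). The peak caller had already selected for tags above IgG, so such ratios describe the listed peaks. The other 4 myoblast peaks assigned to ZFYVE21 lay 36.9 to 89.2 kb downstream, with scores of 10.9 to 13.9.

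ZNF767, ZBTB48 and ZDHHC8 followed by score, while by tags ZBTB48 came before ZDHHC8 and ZNF767. The counting intervals of all 4 genes overlap, so they cannot be ranked among themselves. ZNF767 had a promoter peak on chromosome 2 from 504403 to 504603 at 36 bp from the start of its transcript NR_103453, with a score of 20.9. It held 20 c-Myc tags and 0 IgG tags, at least 9.34-fold higher per 10 M tags when 3 IgG tags are taken as the limit behind 0, a bound that leaves out the counting error of the c-Myc tags (12.2 to 30.9). This gene was flanked by further peaks, since 3 others lay between 15.4 and 28.1 kb from a TSS of it, with scores of 25.3, 18.3 and 13.5. ZBTB48 encodes a BTB-domain protein that binds telomere repeats in human cells. Its promoter peak, on chromosome 21 from 576733 to 576933 centred at -276 bp, had a score of 20 with 24.0 c-Myc and 3.5 IgG tags, a ratio of 9.61 (3.12 to 42.8) per 10 M. A second ZBTB48 peak in a CpG island 12.3 kb upstream was nearly as strong, with a score of 18.7, 21.5 c-Myc tags and 6.0 IgG tags. ZDHHC8, a palmitoyltransferase, had a peak at -916 bp with a score of 17.4 and 21.5 c-Myc tags against 0.5 IgG tags.

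The remaining 14 promoter peaks had lower scores and could not be ranked among themselves, because their counting intervals overlapped widely. These intervals also overlapped those of the genes above, though at ZFP92 and VEZF1 only narrowly with that of ZFYVE21 (19.8 to 42.2). Overlap alone does not show equal counts, and these differences were not tested. The scores of the 14 peaks ran from 10.5 at ZFP92 to 14.4 at ZNF622. Their tags ran from 12 (6.20 to 21.0) at ZFP92 and VEZF1 to 16.5 (9.52 to 26.6) at ZNF622. The median score over the 18 was 12.2, against 13.5 over all 1106 promoter peaks, and 5 of the 18 were above that general median. IgG tags over them had a median of 2.5, from 0 at ZNF767, ZNF800 and ZDHHC17 to 5.5 at ZFYVE19, against a median of 3.0 over all promoter peaks. At ZFYVE19, an abscission checkpoint protein, 15.5 c-Myc tags (8.77 to 25.4) stood against 5.5 IgG tags. That was the lowest ratio among the 18, at 3.95 (1.42 to 13) per 10 M, and VEZF1 was close with 4.20 (1.27 to 17.9).

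**Figure D1:**
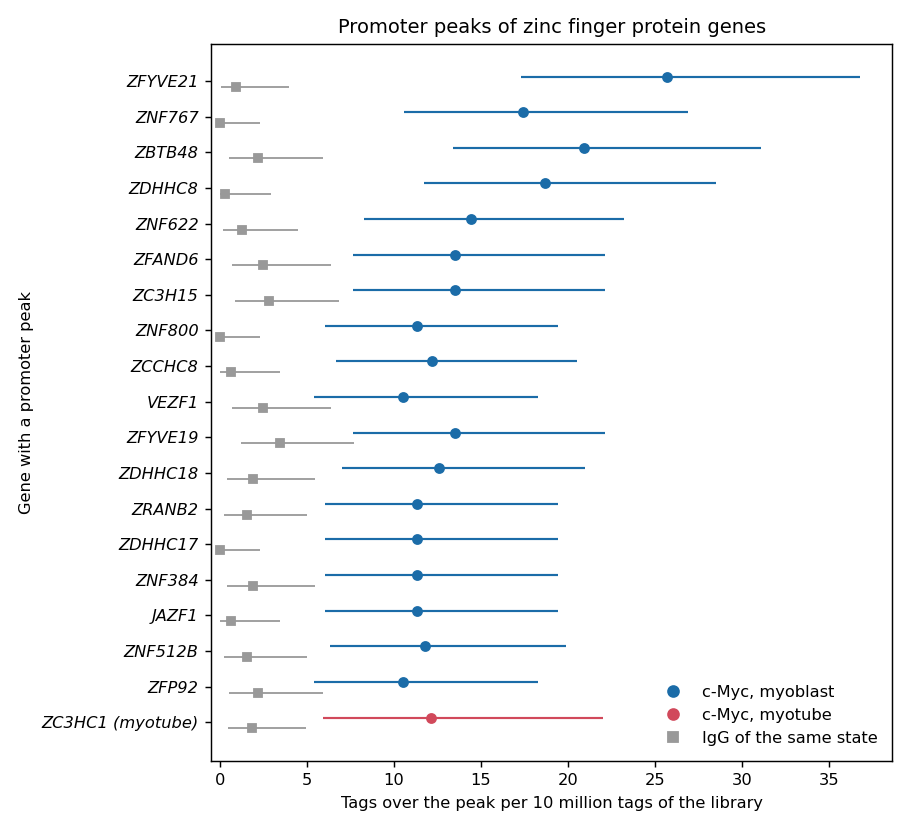
c-Myc tags (circles) and IgG tags (squares) over the promoter peaks of zinc finger protein genes, per 10 M tags of each library, with 95% counting intervals as bars. ZFYVE21 stands at 25.7 for c-Myc and 0.933 for IgG. The c-Myc intervals of the lower 14 myoblast peaks overlap each other and those of the myoblast peaks above them. Overlap alone does not show equal counts.

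Most of these peaks sat close to the start site. Of the 18, 12 lay within 300 bp (66.7%, against 57.3% of all promoter peaks), and 11 were upstream and 7 downstream of the TSS (61.1% upstream, against 57.8%). The closest was at ZNF800, a repressor of enteroendocrine differentiation in mammals, where the peak was centred at -1 bp with a score of 12.6, 13 c-Myc tags and 0 IgG tags. Just inside the limit of 1 kb were ZDHHC8 at -916 bp and ZDHHC18 at -909 bp. Just outside it were ZNF330 at 1047 bp with a score of 10.9 and ZC3H11A at 1211 bp with 13.5, and also JAZF1, which had a second peak at 1374 bp with 13.1. CTCF, the insulator protein that shapes chromatin loops, had a peak 1915 bp downstream of its TSS with a score of 17, 20 c-Myc tags and 5.0 IgG tags. The authors' annotation calls sites up to about 2 kb from a TSS promoter, which takes in 24 zinc finger peaks (9.06%, against 7.49% of all myoblast peaks).

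Between 1 and 5 kb lay 18 further myoblast peaks (6.79%, against 5.93% of all). ZNF609, a gene also known for its circular RNA in muscle, had a peak at -1565 bp with a score of 16.1. ZC3HAV1, the antiviral protein ZAP, had one in exon 2 at 2838 bp with 9.59, among the weakest of the family. ZFP92 had one in exon 4 at 3118 bp with a score of 14.8, over which 12 IgG tags were counted, the highest number at any zinc finger peak in myoblasts. ZNF692, ZNF341 and ZNF365 had their closest peaks at -3023, -3837 and 3929 bp. Within 5 kb, 32 of the 61 genes had a peak (52.5%, 39.3 to 65.4%, against 40.6% of all genes). In myotubes 1 of the 61 had one, the ZC3HC1 peak (1.64%, against 2.98%). The distance to the closest myoblast peak had a median of 3.89 kb over zinc finger genes and 7.84 kb over all genes. GLI3, ZCCHC6, ZFP161 and ZNF277 had none within 50 kb. For all genes this share is not given here, so these genes are named as a description only.

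**Figure D2:**
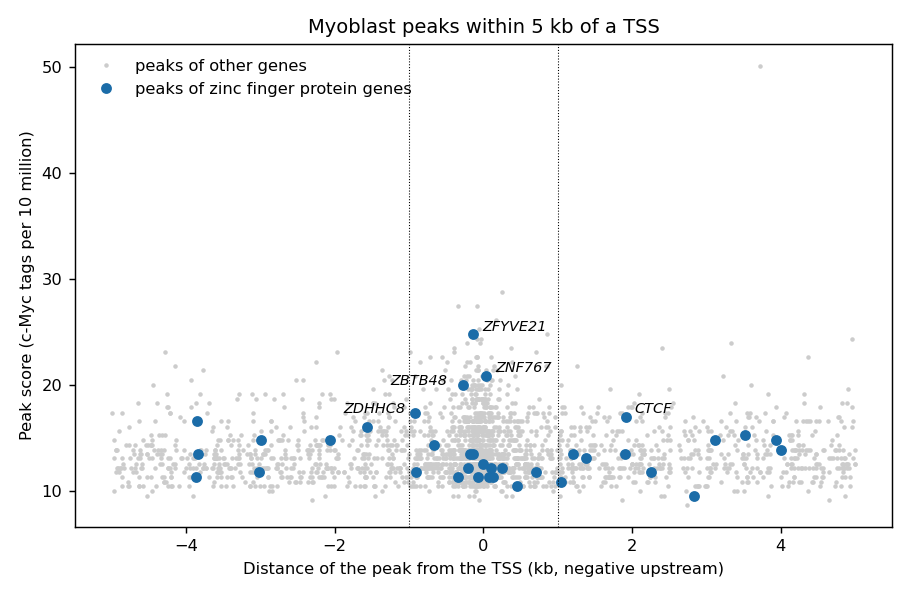
Score of each myoblast peak within 5 kb of a TSS against its distance, with peaks of zinc finger protein genes in blue, those of other genes in grey and dotted lines at 1 kb. ZFYVE21 (24.8), ZNF767 (20.9) and ZBTB48 (20) lie in the central column of promoter peaks, and CTCF (17) outside the lines.

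With families set by gene symbol and not by type of finger, every family except the developmental regulators held a myoblast peak within 1 kb. Palmitoyltransferases had 3 of 6 members with a promoter peak, namely ZDHHC8, ZDHHC18 (score 11.8, 14.5 c-Myc and 3.0 IgG tags) and ZDHHC17 (11.3, with 13 and 0). ZDHHC17 is the huntingtin-interacting enzyme, and its peak lay at -79 bp. ZDHHC13 had its closest peak at -2067 bp, ZDHHC5 at 4001 bp in exon 2 and ZDHHC23 at 15.0 kb. The group of FYVE, AN1 and SWIM finger genes, mostly membrane and ubiquitin proteins, also had 3 of 6, with ZFYVE21, ZFYVE19 (12.2) and ZFAND6, an AN1-type protein that binds ubiquitin (13.5). ZSWIM7, placed here by symbol, encodes a protein of homologous recombination. The closest peaks of ZFYVE1, ZSWIM7 and ZFAND5 were 14.8, 26.3 and 27.0 kb away. With 6 members each, both shares have an interval of 11.8 to 88.2%, so neither can be set apart from 22.0%.

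RNA-binding zinc finger genes had 3 of 10 (30%, 6.67 to 65.2%) in myoblasts. ZC3H15, a partner of the GTPase DRG1, had a peak at -143 bp with a score of 13.5 and 15.5 c-Myc against 4.5 IgG tags. ZCCHC8, a subunit of the complex that brings nuclear RNA to the exosome, had one at 97 bp with 12.2 and 14 against 1.0 tags. ZRANB2, a splicing factor, had one at 709 bp with 11.8 and 13 against 2.5 tags. All 3 scores are at or below the median of all promoter peaks. ZC3H14, ZC3HAV1, ZCCHC6, ZMAT5, ZNF326 and ZC3H11A had their closest myoblast peak between 1.21 kb (ZC3H11A) and 199 kb (ZCCHC6) away. The symbol places ZC3HC1 in this group, although it encodes a protein of the nuclear basket that is not known for binding RNA.

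Genes known only by a number or as ZFP or ZBED had 6 of 19 (31.6%, 12.6 to 56.6%). ZNF622, whose yeast relative acts in maturation of the large ribosomal subunit, had a peak at -664 bp with a score of 14.4, 16.5 c-Myc tags and 2.0 IgG tags. ZNF384 (at -339 bp) and ZNF512B (at 76 bp) had a score of 11.3 each, with 13 and 13.5 c-Myc tags, and ZFP92 (at 456 bp) had 10.5. One of the 19, ZFP161, carries the newer symbol ZBTB14 and thus belongs to the BTB proteins by fold. BTB genes had 1 of 6 by symbol, ZBTB48. Of the others, ZBTB34 had a CpG island peak 11.6 kb upstream with a score of 21.4 (24.5 c-Myc and 3.5 IgG tags), and ZBTB33, which encodes the methyl-DNA binding protein Kaiso, a single peak at 10 kb with 11.8. Chromatin genes had 1 of 4, JAZF1, a subunit of the NuA4 acetyltransferase, with a score of 11.3 at 129 bp. VEZF1, a factor of vascular development, was the 1 of 3 remaining genes with a promoter peak, at -213 bp with 12.2.

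None of the 7 developmental regulators, BCL11A, GLI2, GLI3, IKZF1, IKZF2, IKZF5 and SCRT2, had a promoter peak, which allows a share of up to 41.0%. They were nonetheless nearest to 39 myoblast peaks. GLI2, a transcription factor of Hedgehog signalling, had 11 peaks, of which 8 lay in its introns, with scores of 11.3 to 17. The strongest of these was in intron 3 of NM_001271901, 139 kb from the TSS, with 19.5 c-Myc and 5.0 IgG tags. GLI3, which acts mainly as a repressor in the same pathway, had 3 peaks with the closest at 96.5 kb in intron 2 (score 10). SCRT2, a neural repressor related to Snail, had 1 peak, and it was among the strongest of the whole family at 22.7, 9.71 kb upstream with 26.0 c-Myc and 4.0 IgG tags. BCL11A, a repressor of globin genes, and IKZF2, a lymphoid factor, came closest to the limit, with peaks at 1907 bp (13.5) and 2259 bp (11.8). The authors' annotation calls the BCL11A peak a promoter peak.

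**Figure D3:**
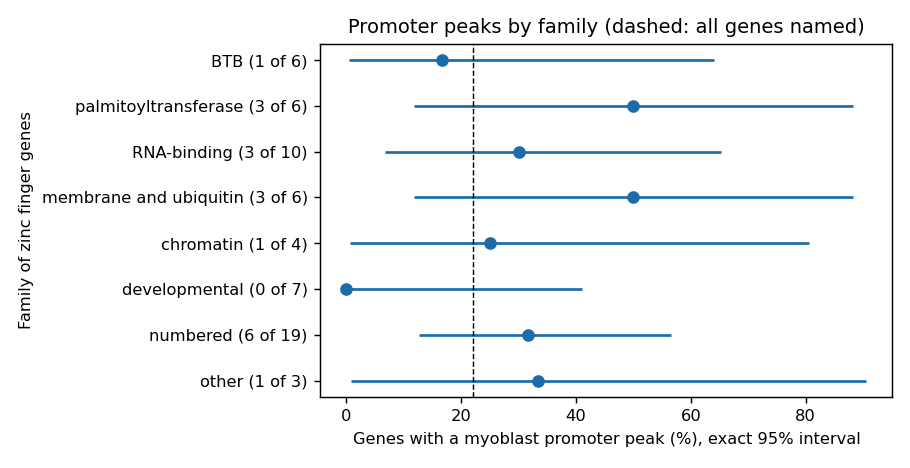
Share of zinc finger protein genes with a myoblast promoter peak by family, with exact 95% binomial intervals and the share over all genes named (22.0%) as a dashed line. Every interval covers the dashed line, including that of the developmental regulators with 0 of 7.

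Most zinc finger peaks lay far from the closest start site in the authors' annotation. Start sites that the annotation lacks could not be counted. In myoblasts the 265 peaks were assigned to 60 of the 61 genes (98.4%, against 98.6% of all genes), with a median of 3 per gene, the same as over all genes. Genes are named only through a peak and most peaks are in the myoblast list, so both shares are high by construction. The 265 peaks made up 1.37% of the list (1.21 to 1.54%), while the genes are 1.26% of those named. Of the 265, 18 (6.79%, 4.08 to 10.5%) lay within 1 kb, against 5.71% of all myoblast peaks, and 107 (40.4%, 34.4 to 46.6%) lay over 100 kb from a TSS, against 35.8%. Their median distance was 61.1 kb and that of all peaks 57.0 kb, with a median score of 12.6 in both. By the authors' labels 26 were in CpG islands outside promoters (9.81%, 6.51 to 14%, against 5.70% of all peaks), 25 in introns (9.43%, against 12.6%) and 12 in repeats (4.53%, against 6.21%). Peaks of 1 gene share a neighbourhood and are not independent, and these shares were not tested.

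A few genes held many of these peaks. ZC3H14, ZDHHC8, JAZF1, ZNF326 and GLI2 had 10 or more each and 92 together (34.7% of the 265), and 8.33% of the zinc finger genes had that many, against 8.52% of all genes with a myoblast peak. ZC3H14, which encodes a protein that binds poly(A) tails, was nearest to 30 peaks and ranked 5 among all genes by that number. They spanned 1322.7 kb of chromosome 5, and 27 of them lay upstream as far as 1091.9 kb. Within that span there were 2.27 peaks per 100 kb, and the whole sequence spanned by peaks held 1.93. A gene's own span ends at its outermost peaks, which raises its figure, so these densities are not directly comparable. Only the peak at -3847 bp, with a score of 16.6 and 19.0 c-Myc against 3.0 IgG tags, lay within 5 kb of its TSS, and it was also the strongest of the 30. JAZF1 had 18 peaks (3.49 per 100 kb of its own span), ZDHHC8 17 (3.90), ZNF326 16 (2.86) and GLI2 11 (4.77). ZNF326, a component of a complex that links transcription and splicing, had a strong peak 28.9 kb downstream (score 20.9, 24.0 c-Myc and 6.5 IgG tags).

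Some of the strongest zinc finger peaks in myoblasts were outside promoters. The highest score of the 265 was 25.7, at a TGG simple repeat 7 kb upstream of ZBTB7A, a BTB repressor known for silencing fetal globin in human cells. The next was the peak 15.8 kb upstream of ZNF767 (25.3, 28 c-Myc and 4.0 IgG tags). RCHY1, a ubiquitin ligase of p53, had a peak at 9.03 kb with 20, and VEZF1 had one 13.6 kb downstream with 19.2, above its own promoter peak. Pairs of peaks less than 1 kb apart occurred at GLI2, ZBTB34, ZC3H14, ZCCHC6 and ZDHHC8. The share of all genes with such pairs is not given here, so these pairs do not set the family apart. The pair at ZCCHC6, a terminal uridylyltransferase of RNA, lay 625 bp apart in CpG islands 199 kb upstream.

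**Figure D4:**
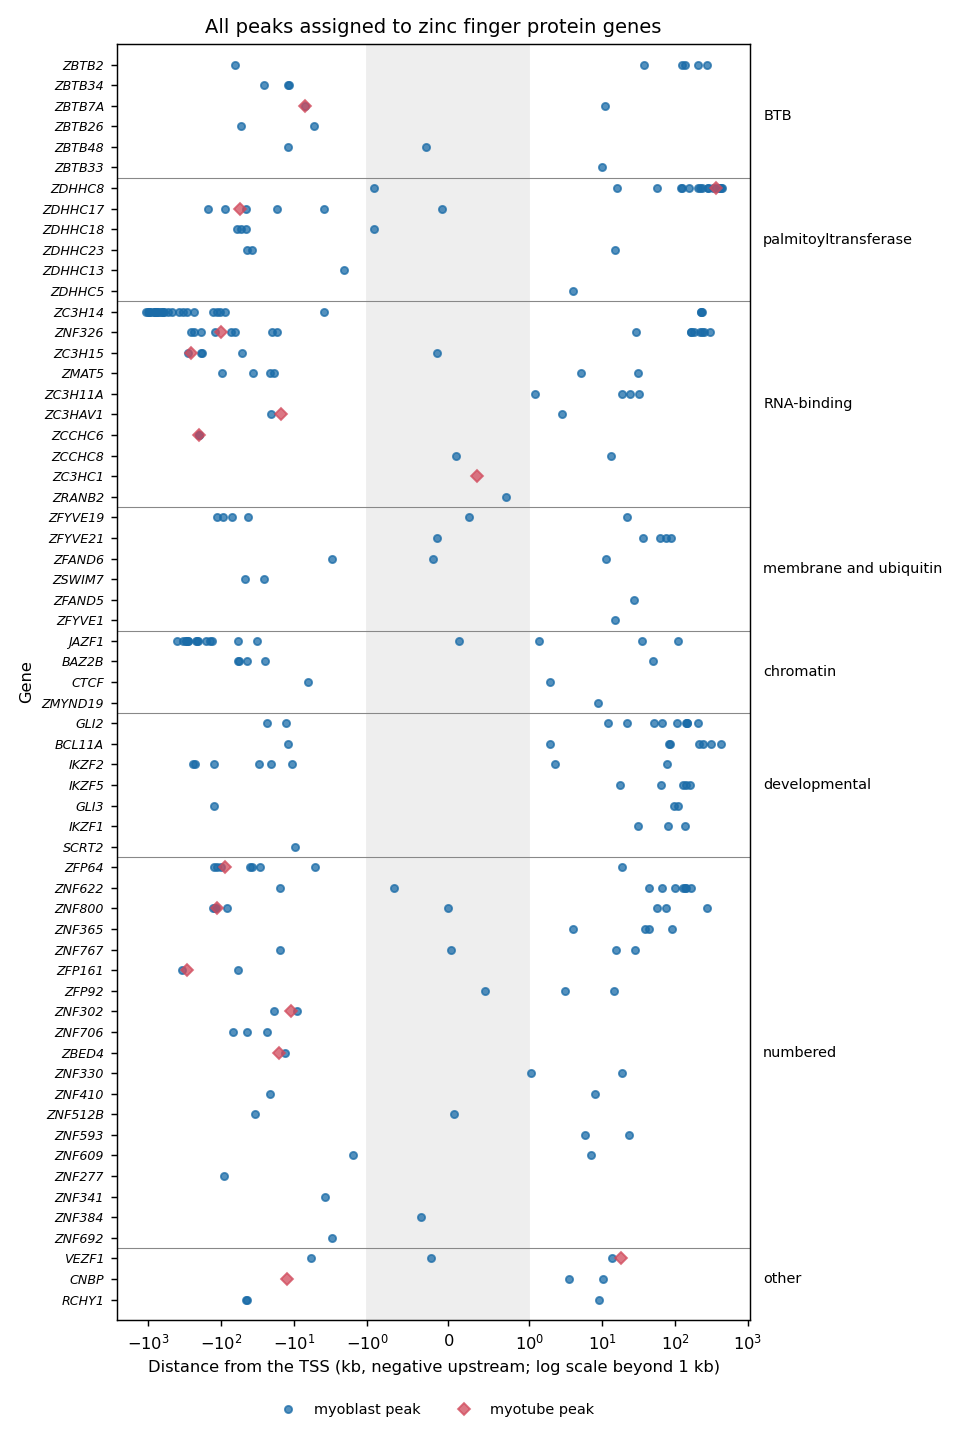
Distance from the TSS in kb (log scale beyond 1 kb) of every peak assigned to a zinc finger protein gene, 1 line per gene, ordered by family; blue circles are myoblast peaks and red diamonds myotube peaks, and the grey band is the promoter window. ZC3H14 shows a run of upstream peaks out to 1091.9 kb, and ZC3HC1 is the 1 gene with a myotube peak in the band.

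In myotubes 15 zinc finger genes had 1 peak each (24.6%, 14.5 to 37.3%, against 18.3% of all genes), and 14 of them also had myoblast peaks (93.3%, against 92.5% of all genes in the myotube list). The promoter peak at ZC3HC1 lay on chromosome 1 from 859014 to 859168, 353 bp downstream of the TSS, with 10.5 c-Myc tags (5.14 to 19.0) and 3.5 IgG tags. Its score of 11.6 ranked 60 of 67 promoter peaks in myotubes. The authors' annotation places this peak in the promoter of another transcript, NR_105545, which is not paired with a symbol in the files. No myoblast peak was assigned to ZC3HC1, and the closest lay 37.3 kb away.

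The other 14 myotube peaks were between 7.01 kb (ZBTB7A) and 364 kb (ZDHHC8) from a TSS. Apart from ZBTB7A their scores were 11.6 to 15.6, and 11 of the 15 had a caller score of 11.5 or below, where 11 was the lowest listed (57.7% of all myotube peaks were in that range). ZNF326 had the highest of these, 15.6, with 14 c-Myc tags and 0.5 IgG tags 101 kb upstream. CNBP, a nucleic acid-binding protein whose human gene carries the repeat expansion of a form of myotonic dystrophy, had a myotube peak 12.4 kb upstream with 12 c-Myc and 6.5 IgG tags. The CNBP peaks of myoblasts lay elsewhere, in intron 1 at 3.52 kb (score 15.3) and at the end of the gene at 10.2 kb (17.4). ZFP64 had a peak of the same score, 13.9, at 89.5 kb with 12 c-Myc and 3.0 IgG tags, and ZFP161 and ZCCHC6 had peaks with 0 IgG tags and 10.5 and 11 c-Myc tags. These counts differ by less than their counting error. VEZF1, ZC3H15, ZDHHC17, ZDHHC8 and ZNF800 had a promoter peak in myoblasts and a myotube peak only at 18.3 to 364 kb. Among all 1063 genes with a myoblast promoter peak, only 18 had one in myotubes too. The share of all genes with a myoblast promoter peak and only distal myotube peaks is not given here, so this pattern does not set the family apart.

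A single myotube peak, that of ZBTB7A, overlapped a myoblast peak (1 of 15, 6.67%, 0.169 to 31.9%, against 6.97% of all myotube peaks). It lay on chromosome 28 from 1407091 to 1407245 and fell whole within the myoblast peak from 1407082 to 1407282. The scores were 30.1 in myotubes, rank 20 of its list, and 25.7 in myoblasts, rank 55 of its list. It held 26.5 c-Myc tags (17.4 to 38.7) and 8.5 IgG tags in myotubes, and 29.5 and 6.0 in myoblasts. Both peaks carry the label of a TGG simple repeat, and the median IgG count of a peak was 3.0 in myotubes and 2.5 in myoblasts. The part of the repeat in this signal was not tested. Over the 15 peaks the distance to the closest myoblast peak had a median of 5.18 kb, against 11 kb over all myotube peaks, with ZCCHC6 (1.63 kb) and ZNF302 (1.71 kb) next after ZBTB7A.

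**Figure D5:**
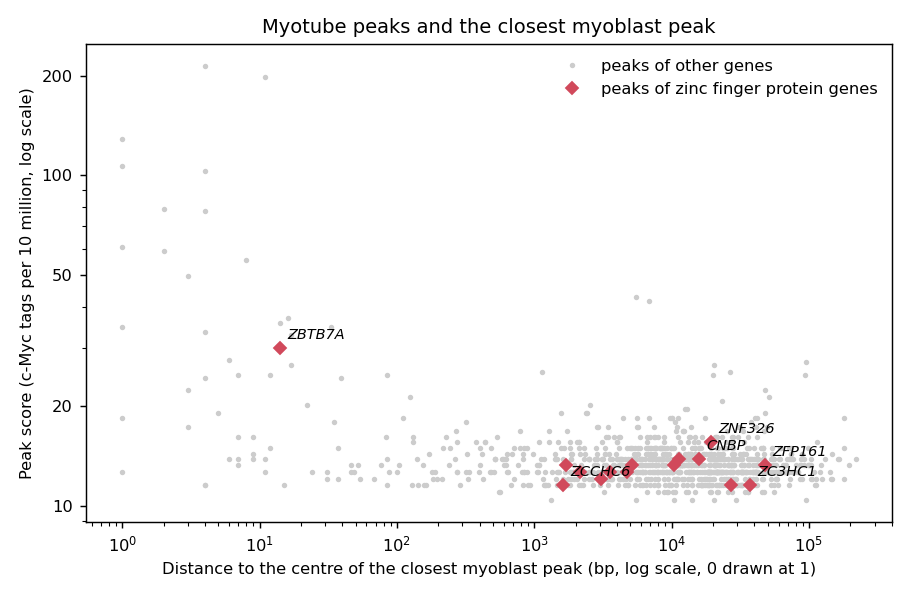
Score of each myotube peak against the distance from its centre to that of the closest myoblast peak, both on log scales, with peaks of zinc finger protein genes in red and others in grey. ZBTB7A (30.1, 14 bp) is the 1 red point near a myoblast peak, and the others lie at 1.63 kb or more.

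The 2 lists differ in what they could hold. The lowest caller score was 11 in myotubes, which scales to 18.9 in myoblasts for library depth and peak width (200 bp in myoblasts, 154 bp in myotubes). Of the 18 promoter peaks 3 had a caller score that high, at ZFYVE21, ZNF767 and ZBTB48 (16.7%, against 14.3% of all promoter peaks). By caller tags the lowest myotube peak had 9.0, which scales to 15.5 in myoblasts on the same assumption. ZDHHC8 and ZNF622 then passed as well, 5 of 18 (27.8%, against 47.6% of all promoter peaks). ZFAND6 and ZC3H15 had 15.5 and fell just below the limit before rounding, so these shares depend on a small step. None of the 3 peaks that passed by caller score had a promoter peak of its gene in myotubes, and among all genes with so high a promoter peak 5 of 156 had one (3.21%). The part of depth and peak width in the difference between the lists was not tested.

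Partner genes of zinc finger factors were counted beside them. Of 38 corepressor, cohesin and Hedgehog genes, 13 were named in the lists and 5 of these had a myoblast promoter peak (38.5%, 13.9 to 68.4%, against 22.0% of all genes). The general share lies inside this interval. How many genes of any kind are named in the lists is not given as a share here, so 13 of 38 is a description only. SUFU, which holds GLI factors in the cytoplasm, had the strongest, 108 bp downstream with a score of 20.5, 23.5 c-Myc and 4.5 IgG tags. HDAC2, a histone deacetylase, had peaks at -254 bp (10.5) and 594 bp (17.4), the latter with 21.0 c-Myc and 0 IgG tags. SIN3A, a corepressor scaffold, had 13.5, SMC3, a cohesin subunit, 12.6, and PTCH1, the Hedgehog receptor, 10.5 with 12.5 c-Myc and 6.0 IgG tags. None of the 13 had a promoter peak in myotubes, where 1.37% of all genes did. HDAC3 and RCOR3, 2 of the 13, had a myotube peak farther away, and 18.3% of all genes had any myotube peak.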

How the data were processed

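c-Myc and IgG libraries of myoblasts and myotubes, 1 per group, were analysed from the peak list of each state. Per the submitters' processing notes the tools were CASAVA 1.8.2, Trimmomatic 0.30, FastQC 0.10.1, Bowtie2 2.1.0 and HOMER 4.6, with build galGal4; their options are not stated. Peaks of c-Myc against IgG were annotated with 1 nearest gene each, per the file headers. The deposited score equals the caller's c-Myc tags per 10 M within 0.05. The deposited signal columns give unscaled tags over each peak, all multiples of 0.5, so tags may be reads of a pair. The deposited fold ratios (all at least 4.0), p-values against IgG (at most 8.09e-05) and the fraction of tags near each peak centre are the authors' own and are not used for single genes.

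Counts, medians, exact (Clopper-Pearson) binomial intervals and Poisson intervals, all at 95%, were computed with Python 3.11.15, pandas 2.3.3 and scipy 1.17.1. Tag ratios carry conditional binomial intervals. Tags in steps of 0.5 were not rounded to whole counts, so the intervals of tags and tag ratios are approximate. The counting was tested on simulated data. Shared peaks overlap by at least 1 bp. All 61 genes matched the RefSeq table of assembly GRCg7b by gene ID. It was used for names and for the count of genes with a curated transcript under other observations. Members, families and lists were chosen with earlier results of these data known. Families go by symbol. Named genes were those with the 12 highest promoter scores, a promoter peak in myotubes, a peak shared between lists or the most peaks. Up to 4 per family and partner genes with a promoter peak were also named. Genes just outside 1 kb, closest distances, strong distal peaks and other myotube peaks were chosen after their values were seen. No sequence was used here.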

Additional observations from a re-analysis of the deposited data

How the results depend on the processing

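Of 40 alternative values, 28 stayed within 1.5 times or within the counting interval of the reported value, and 12 moved. Some of the 28 could not have moved, so this tally does not measure how robust the results are. The ZBTB7A myotube peak, for example, lies whole within its myoblast peak, so the other overlap rules could not drop it. The 18 zinc finger genes with a myoblast promoter peak became 14 within 500 bp (23.0%, against 16.8% of all genes) and 32 within 5 kb (52.5%, against 40.6% of all genes). They became 7 in the upper 50% of the list by score (11.5%, against 13.6%), where the share over all genes was the higher one. They became 4 when the myoblast list was limited to its 1061 highest scores, the length of the myotube list (6.56%, against 3.10%), and 1 where both folds had to be at least 8 (1.64%, against 1.01%). With ZNF, ZFP, ZBTB and ZSCAN symbols only they were 7 of 25 (28%). The 1 gene with a myotube promoter peak became 0 with folds of at least 8, in the upper 50% by score and with those symbols only. With folds of at least 8, the median promoter score was 20.9, which rests on 1 promoter peak. The zinc finger peaks with such folds were 20 in myoblasts and 2 in myotubes. The shares over all peaks with such folds are not given here, so these counts do not set the family apart. The 1 shared peak became 0 without peaks labelled as repeats. Fewer peaks or members enter these counts by construction, except in the wider window. Genes with a promoter peak in both lists were also 0 within 5 kb; most other alternatives only remove peaks or genes and could not change that count.

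No paired analysis was possible because each group has 1 library. Motif and protein counts planned for these genes were not run, since no sequence was used here. A typical zinc finger peak holds 14.5 c-Myc tags in myoblasts and 11.5 in myotubes, so single peaks are measured coarsely.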

Other observations

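Of 60 genes of assembly GRCg7b with a curated transcript and a numbered ZNF, ZBTB, ZFP, ZDHHC, ZC3H, ZCCHC, ZFYVE, ZFAND or IKZF symbol, 45 were named in either peak list. The other 15 were nearest to no peak or were not in the authors' annotation, and the lists do not tell these apart. The share of all curated genes named in the lists is not given here, so this count does not set the family apart.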
